A study of Mus musculus with 6 samples.

Results

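The genes examined here encode apolipoproteins and proteins that handle lipoprotein lipid: Apoa1, Apoa2, Apoa4, Apob, Apoc1, Apoe, Lpl, Lipc and Fabp2. They were taken by gene symbol, as all probe sets annotated to 1 of these 9 symbols. The list of symbols was chosen with earlier results of these data known. Counts of members set against all genes below carry that limit. Of the 9 listed genes, 8 had at least 1 probe set, 11 probe sets of 12488 on the array, and Lipc is not analysed here. All 8 were among the 4844 genes, of 8251 with a named probe set, whose mean signal over the arrays reached the reading floor of 606 scaled units. Scaled units are the deposited intensities after each array was divided by 1 factor that brought the arrays to a common level. The floor is the median of all scaled values, and below it no level was read.

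Total liver RNA was hybridised to 6 one-colour Affymetrix mouse arrays, 1 per group. The mice were male and 8 to 10 weeks of age. Wild-type mice of C57BL/6 background, Clock mutant mice and Cry-deficient mice were each sampled at circadian time 2 h (CT02), early in the subjective day, and 14 h (CT14), early in the subjective night. The Cry-deficient array at CT02 was described as coming from mice that lacked both Cry1 and Cry2, and the one at CT14 only as Cry deficient. The sources used here do not give the Clock allele, the background of the mutants or any pooling of mice. With 1 array per group no difference below has a replicate check, the number of arrays limits the precision, and no test was made. "Apart" means that a pair of arrays differed by at least 2-fold, the size used throughout to describe a difference, and "at least" before a fold means that the lower array lay under the floor.

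Lipoproteins carry triglyceride and cholesterol in plasma. The liver builds very-low-density particles around apolipoprotein B and secretes exchangeable apolipoproteins, which sit on the particle surface, hold it in solution, and steer it to lipases and receptors. Lipoprotein lipase, anchored at the capillary wall of muscle and fat, releases fatty acids from the particles, and inside cells fatty acids are carried by small binding proteins such as the product of Fabp2. CLOCK is a transcription factor that works as a pair with BMAL1 at E-box sequences, and the cryptochromes repress that pair.

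The E-box motif is why promoter sequence is shown for members that stood on opposite sides of wild type on the arrays of the mutants. The 250 bases before a transcription start were searched on both strands in RefSeq sequence of build GRCm38.p6, where 7 of the 9 listed genes had a window (11 windows in all, since some genes have several starts). Capitals mark matches to the general E-box CANNTG, which includes the strict form. Apoe (chr7:19699189-19699438, minus strand, 1 of 3 windows of the gene), Apoa4 (chr9:46240594-46240843, plus strand) and Fabp2 (chr3:122894822-122895071, plus strand) read, from 5′ to 3′:
Apoe: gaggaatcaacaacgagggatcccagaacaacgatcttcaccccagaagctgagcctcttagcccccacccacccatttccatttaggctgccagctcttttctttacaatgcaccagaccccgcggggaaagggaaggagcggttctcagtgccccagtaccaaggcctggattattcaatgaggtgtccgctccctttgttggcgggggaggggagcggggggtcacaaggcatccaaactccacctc
Apoa4: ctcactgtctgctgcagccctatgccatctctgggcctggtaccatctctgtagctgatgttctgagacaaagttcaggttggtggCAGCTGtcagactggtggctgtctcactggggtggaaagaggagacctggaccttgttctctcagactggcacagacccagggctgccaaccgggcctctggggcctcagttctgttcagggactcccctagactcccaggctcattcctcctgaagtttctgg
Fabp2: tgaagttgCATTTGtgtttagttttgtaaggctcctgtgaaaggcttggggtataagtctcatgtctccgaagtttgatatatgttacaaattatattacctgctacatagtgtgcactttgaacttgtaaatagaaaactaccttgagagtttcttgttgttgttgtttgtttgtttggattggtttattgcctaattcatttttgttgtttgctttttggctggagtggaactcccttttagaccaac
The Apoe window shown held no CANNTG, though another of its 3 windows held CAGGTG at 212 bases before its start, and the windows of Apoa4 and Fabp2 held 1 each, CAGCTG at 164 bases and CATTTG at 242 bases before the start. The strict E-box CACGTG was in 0 of the 11 windows of the listed genes, against 6.02% of all 32851 windows of that length. CANNTG was in 8 of the 11, against 66.2%. The D-box TTANGTAA, the motif of the clock output factor DBP, was in 0, against 2.06%. The nuclear receptor half-site AGGTCA was in 2, in windows of Apoa2 and Lipc, against 14%. A match is a description of these letters and says nothing of binding.

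The arrays differed in brightness and in control probe ratios. Mean deposited intensity ranged from 1637 (Clock mutant, CT02) to 2486 (Cry-deficient, CT14). The Actb control probe set at the 3′ end over that at the 5′ end, a ratio that climbs as RNA is shortened, was 2.68 on the Clock mutant CT02 array and 1.70 on the Cry-deficient CT02 array, and ranged from 0.84 to 1.15 on the other 4. For Gapdh this ratio reached 2.37 with Cry-deficient RNA at CT02 but was lowest, 0.56, on the Clock mutant CT02 array, so the controls differ on the latter. All 8 hepatocyte markers on the array were above the floor on every array, with summed levels from 98097 (Clock mutant, CT14) to 151941 scaled units (Clock mutant, CT02). Marker sums, here and below, count every positive value, also those under the floor. Clock and Cry2 were above the floor on all 6 arrays, and the brightest Cry1 probe set, which can match several related transcripts, read 3845 and 4718 on the Cry-deficient arrays against 1833 and 2723 in wild type. It is not known here if these probes fall within what was deleted, so they check no label, and "Cry-deficient" and "Clock mutant" below name the arrays by their labels.

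The 8 genes fell into a flat pair and a group that split by genotype. Apob and Apoa2 stayed within 1.48-fold over all 6 arrays. They were also the brightest members, at the 99.3 and 92.5 percentiles of kept genes. Of genes with a mean at or above the 75th percentile of scaled values, 2.50% to 7.93% were apart per comparison. Of all kept genes, 4.56% to 11.8% were. Apoa4, Apoc1 and Apoe were lowest on the Clock mutant arrays and highest on the Cry-deficient arrays, and Lpl and Fabp2 had the reverse order. Apoa1 was above the floor on only 3 arrays.

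**Figure D1:**
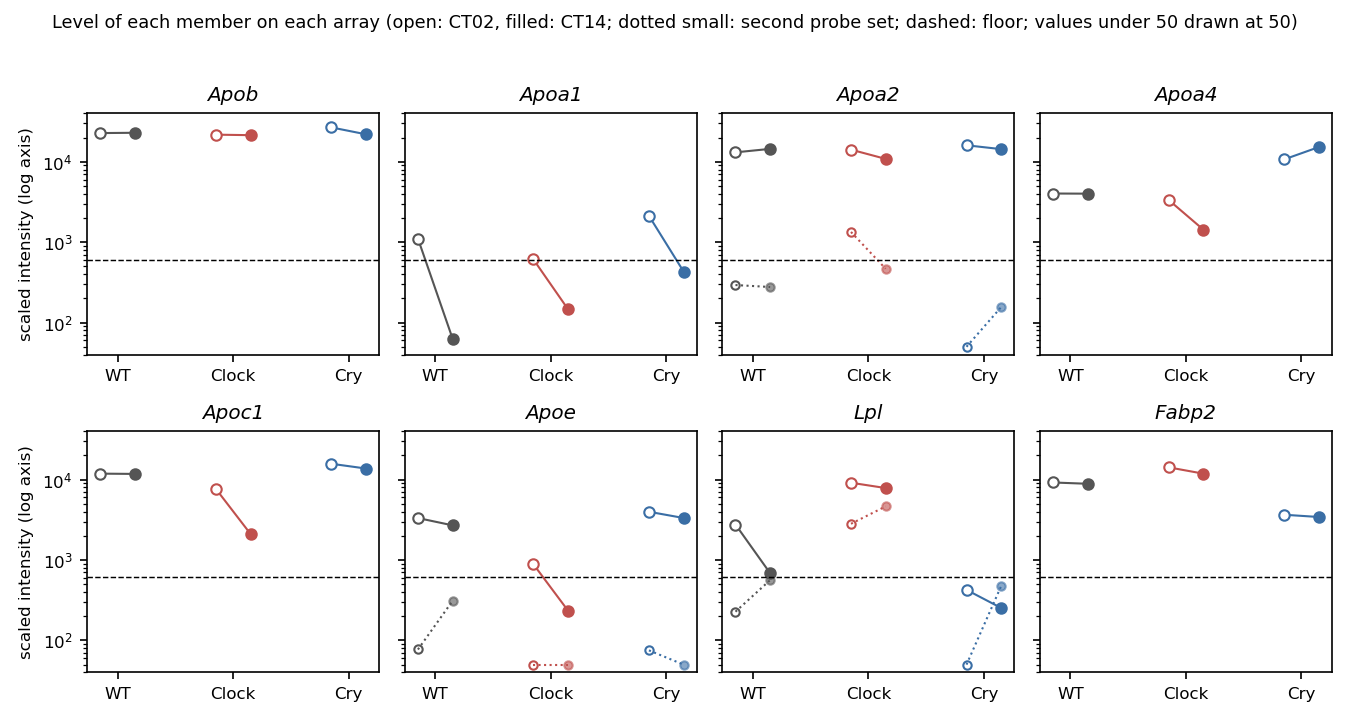
Level of each of the 8 genes on each of the 6 arrays, in scaled units on a log axis, with colour for genotype (WT, wild type), open points for CT02, filled points for CT14, small points on dotted lines for a second probe set, and a dashed line at the floor of 606 (values under 50 are drawn at 50). Apob and the brighter Apoa2 probe set are level across the arrays, Apoa4, Apoc1 and Apoe are lowest in the Clock mutant, and Lpl and Fabp2 are highest there.

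Among the structural apolipoproteins, Apob, whose product forms the backbone of very-low-density particles, read 22704 and 22904 scaled units in the wild-type pair of arrays (CT02 first, then CT14, here and in each pair below), 21700 and 21383 in the Clock mutant pair, and 26698 and 21914 in the Cry-deficient pair. The highest array, Cry-deficient at CT02, was 1.25-fold above the lowest, and the Clock mutant pair lay just below the other 4 arrays. Apoa2, the second protein of high-density particles, read 13074 and 14448 (wild type), 14131 and 10842 (Clock mutant), and 16014 and 14337 (Cry-deficient), on its brighter probe set, of a type that can match several related transcripts. Its values spanned 1.48-fold and overlapped between genotypes. A second Apoa2 probe set was above the floor on 1 array only, Clock mutant at CT02, at 1338.

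Apoa1 encodes the main protein of high-density particles. At CT02 its probe set read 1107 in wild type, 609 in the Clock mutant, which is barely above the floor, and 2122 in the Cry-deficient mice. At CT14 it read 63.1, 146 and 431, all under the floor. It was therefore higher at CT02 than at CT14 by at least 1.83-fold in wild type and at least 3.50-fold in the Cry-deficient mice. In the Clock mutant no direction was read, since as deposited both arrays lay under the floor. At CT02 the Cry-deficient array was 1.92-fold above wild type. Of the 8 genes only Apoa1 was apart between the times in the Cry-deficient mice, where 5.55% of all kept genes were. Its mean signal of 746 passed the floor only through the Cry-deficient CT02 array, at 2122. The call rests on the same array that let the gene be kept, so it is no independent result. Apoa1 is known as an abundant liver transcript, and this probe set read close to the floor.

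Apoa4, a lipid-responsive apolipoprotein made in intestine and, in mice, also in liver, read 4024 and 4006 (wild type), 3355 and 1436 (Clock mutant), and 10676 and 15196 (Cry-deficient). Both Cry-deficient arrays were above every other array, and the Clock mutant arrays were both below wild type. Against wild type the Cry-deficient arrays were 2.65-fold higher at CT02 and 3.79-fold higher at CT14, the latter the 16th highest ratio of 4844 genes. The Clock mutant was 2.79-fold lower at CT14, and at CT02 had a log2 ratio of -0.26, which is not apart. Wild type was level between the times (log2 ratio -0.01), while the Clock mutant was 2.34-fold lower at CT14 than at CT02 (log2 ratio -1.22, and -0.73, no longer 2-fold, as deposited).

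Apoc1 encodes a small surface apolipoprotein that inhibits lipase action and receptor uptake. It read 11851 and 11755 (wild type), 7651 and 2105 (Clock mutant), and 15714 and 13713 (Cry-deficient). The 3 genotypes did not overlap, and the Clock mutant at CT14 stood far below the other 5 arrays. It was 5.58-fold below wild type at CT14, the 14th lowest ratio of 4844, against 1.55-fold at CT02. Within the Clock mutant the level at CT14 was 3.63-fold lower than at CT02 (18th lowest ratio of 4844), against a log2 ratio of -0.01 in wild type. The Cry-deficient arrays were above wild type by only 0.41 and 0.22 on the log2 scale.

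Apoe, the ligand by which remnant particles are taken up through receptors of the LDL receptor family, read 3325 and 2696 in wild type and 3977 and 3327 in the Cry-deficient mice. In the Clock mutant it read 884 at CT02 and 234, under the floor, at CT14. Both Clock mutant arrays were below all others, 3.76-fold below wild type at CT02 and at least 4.45-fold below at CT14. These ratios rest on 1 probe set of middling signal, with a mean of 2407, at the 49th percentile of kept genes. The Cry-deficient arrays exceeded wild type by 0.26 and 0.30 on the log2 scale at matched times, and their lower value, 3327, stood almost level with the higher of wild type, 3325. Apoe was the only member lower by at least 2-fold at both times in the Clock mutant, as were 90 genes (1.86%) of all kept. A second Apoe probe set was under the floor on all 6 arrays, and with the mean over probe sets the log2 ratio of the Clock mutant to wild type was -0.96 at CT02, just short of 2-fold, and -1.08 at CT14.

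The hepatocyte markers were also low on the Clock mutant CT14 array. Their median log2 ratio to wild type at CT14 was -0.33, with 0 of 8 apart, where 9.76% of all kept genes were. Their median log2 ratio of CT14 over CT02 within the Clock mutant was -0.69. There 8 of 8 were lower and 1 of 8 apart, where 7.74% of all kept genes were apart. At CT02 the same markers were above wild type, at a median of 0.23, while Apoe was below. In whole tissue, fewer cells of a type and less RNA per cell cannot be told apart. Macrophage markers, which bear on Apoe because macrophages make it, had 11 of 11 genes above the floor on an array, with summed levels of 29443 and 30271 (Clock mutant), 39015 and 37665 (wild type), and 53318 and 41347 (Cry-deficient). This order of the sums is that of Apoe, but not every marker shared it. Against wild type, 3 of 11 were higher and 6 lower in the Clock mutant at CT02, and 2 and 8 at CT14. In the Cry-deficient mice 10 were higher and 1 lower at CT02, and 7 and 4 at CT14. C1qa read 1508 on the Cry-deficient CT02 array against 4779 in wild type. The part of the macrophage markers in the Apoe result was not tested.

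Lpl encodes lipoprotein lipase, which is low in healthy adult liver. Its brighter probe set read 2761 in wild type at CT02 and 685 at CT14. The Clock mutant pair read 9132 and 7845, and the Cry-deficient pair 425 and 253, both under the floor. The genotypes did not overlap, with the Clock mutant above and the Cry-deficient mice below wild type. The Clock mutant was 3.31-fold above wild type at CT02 and 11.4-fold above at CT14, the latter the 3rd highest ratio of 4844 genes. Lpl was the only member higher by at least 2-fold at both times, as were 56 genes (1.16%) of all kept. The Cry-deficient array at CT02 was at least 4.55-fold below wild type, while at CT14 wild type itself was so near the floor that little difference could be read.

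Lpl was also the only member apart between the times in wild type, 4.03-fold lower at CT14, the 3rd lowest ratio of 4844, where 4.56% of kept genes were apart. In the Clock mutant its log2 ratio between the times was -0.22. The second Lpl probe set read 228 and 563 (wild type) and 14 and 474 (Cry-deficient), all under the floor. It read 2820 and 4640 in the Clock mutant, at least 4.65-fold and at least 7.65-fold above wild type. The pair of probe sets thus shared the direction of the Clock mutant's difference, and the difference between times in wild type was read on 1 of them only. With the mean over probe sets, where the second one is at the floor, the log2 ratio between times in wild type was -1.01, and that of the Cry-deficient array to wild type at CT02 was -1.09. Within the Clock mutant the second probe set was higher at CT14, by 0.72 on the log2 scale, where the brighter one was lower.

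Fat and muscle are the tissues richest in this lipase, so their markers are given beside it. Of 6 adipocyte markers on the array, Adipoq, Lep and Fabp4 were above the floor on at least 1 array. Their list summed to 8244 and 7663 scaled units (Clock mutant), 5687 and 4790 (wild type), and 4642 and 5619 (Cry-deficient). Adipoq, the defining marker of fat, read 617 and 549 in the Clock mutant, at the level of the floor, and from 157 to 429 elsewhere, and Retn, Ucp1 and Cidec were under the floor on all 6. Of 9 striated muscle markers, 5 were above the floor on an array, with sums of 8509 and 8791 in the Clock mutant and 5920 to 6463 on the other 4, and Mb, Myl1, Myh6 and Tnnt3 never were. The summed markers of both tissues were highest on the Clock mutant arrays, as Lpl was, in sums that hold values under the floor. Of the 3 muscle markers kept, Ckm read 2338 and 2125 (Clock mutant) against 1604 and 919 (wild type). Tnnc2 read 1943 and 1913 against 1866 and 1901, and Actc1 was above wild type by 0.09 and 0.32 on the log2 scale. The adipocyte sum was mostly Lep, which read 6286 and 5658 (Clock mutant), 4316 and 3290 (wild type), and 3208 and 4094 (Cry-deficient). Fabp4, the other adipocyte marker kept, read 1233 and 1224, 752 and 857, and 1108 and 917 in the same order. It was thus above wild type in both mutants, unlike Lpl. The part of these markers in the result was not tested. The macrophage sum, given above, was lowest on the Clock mutant arrays.

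Fabp2 encodes a fatty acid binding protein named for the intestine and also expressed in mouse liver. It read 9201 and 8866 (wild type), 14197 and 11855 (Clock mutant), and 3654 and 3425 (Cry-deficient). The genotypes did not overlap, and within each genotype the times were within 0.26 on the log2 scale. The Cry-deficient arrays were 2.52-fold and 2.59-fold below wild type, the latter the 40th lowest ratio of 4844. The Clock mutant exceeded wild type by 1.54-fold and 1.34-fold, which is not apart. Fabp2 was the only member lower by at least 2-fold at both times in the Cry-deficient mice, and Apoa4 the only one higher, each as were 23 genes (0.475%) of all kept.

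Both Apoa4 and Fabp2 are strongly expressed in enterocytes. Of 9 enterocyte markers on the array, Vil1, Lct, Reg3g and Guca2a were under the floor on all 6, and 5 were above it on at least 1. The list summed to 12536 and 9912 (Clock mutant), 9397 and 7805 (wild type), and 6534 and 7228 (Cry-deficient). This order of the sums is that of Fabp2 and the reverse of that of Apoa4, but not every marker shared it. Of the 4 kept markers, 3 were higher than wild type and 1 lower in the Clock mutant at CT02, and 2 and 2 at CT14. In the Cry-deficient mice 0 were higher and 4 lower at CT02, and 3 and 1 at CT14. Anpep, the brightest, read 4980 and 4196 (wild type), 6411 and 4569 (Clock mutant), and 4664 and 4373 (Cry-deficient). Fabp6, the ileal bile acid binding protein on that list, read 2699 and 2907 (Clock mutant), 1962 and 545 (wild type), and 582 and 732 (Cry-deficient).

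**Figure D2:**
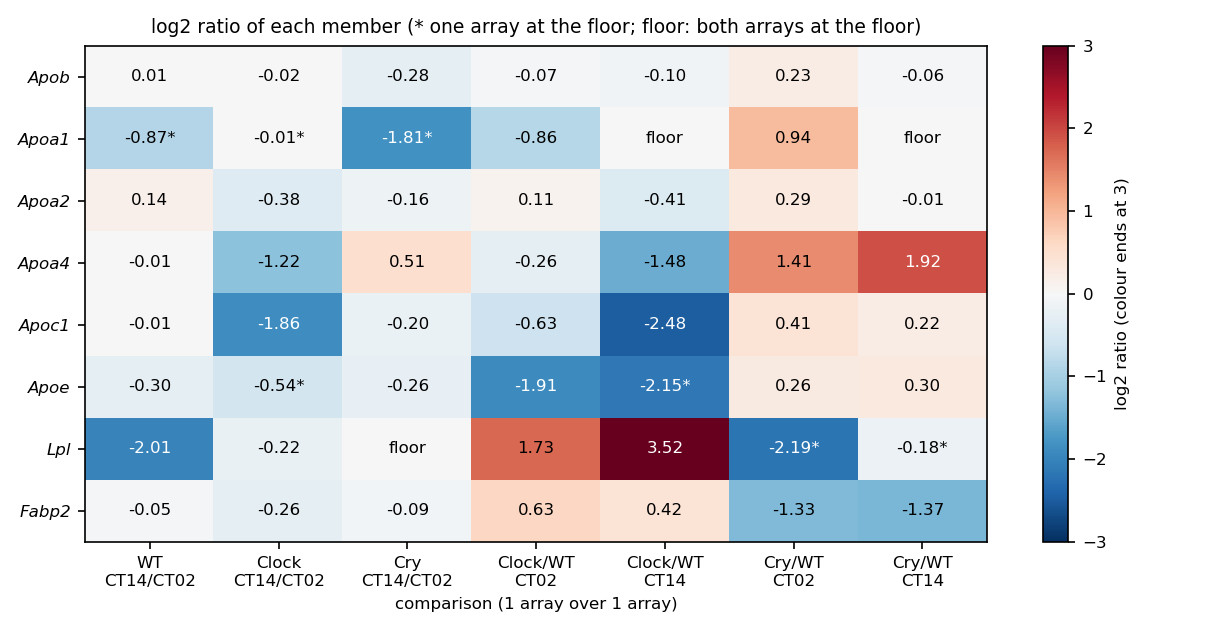
Colour map of the log2 ratio of each of the 8 genes (lines) in each of the 7 comparisons (columns), with the value printed in each cell, a star where 1 of the arrays compared lay at the floor, and "floor" where both did; the colour ends at 3. For the Clock mutant against wild type at CT14, Lpl has 3.52 and Apoc1 -2.48, while the ratio of Apob farthest from 0 is -0.28.

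Set against all kept genes, the members' counts were as follows. Between the times, 1 of 8 (Lpl) was apart in wild type, 2 of 8 (Apoa4 and Apoc1) in the Clock mutant, where 7.74% of kept genes were, and 1 of 8 (Apoa1) in the Cry-deficient mice. Apoa1 was kept only through the array on which it was high. Apart from Apoa1, with no direction read, the members read lower at CT14 in the Clock mutant as scaled. The median log2 ratio over all 8 was -0.32 against 0.00 over all kept genes. As deposited, Apob, Apoa2, Lpl and Fabp2 read higher there by 0.48, 0.12, 0.28 and 0.24, where the median of all kept genes was 0.45. After quantile scaling, Apob had a log2 ratio of 0.30 there and Fabp2 one of -0.05, where the median of all kept genes was 0.00. Against wild type, the Clock mutant had 2 of 8 apart at CT02 (Apoe and Lpl), where 11.8% of kept genes were, and 4 of 8 at CT14 (Apoa4, Apoc1 and Apoe lower, Lpl higher), where 9.76% were. The Cry-deficient mice had 3 of 8 apart at CT02 (Apoa4 higher, Lpl and Fabp2 lower), where 6.69% were, and 2 of 8 at CT14 (Apoa4 and Fabp2), where 4.73% were. Median log2 ratios of the 8 were -0.16 and -0.26 (Clock mutant, CT02 and CT14) and 0.28 and -0.01 (Cry-deficient), against values between -0.01 and 0.00 over all kept genes. The members thus lay on both sides, and no median stood for them.

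The 2 mutants are compared with the same wild-type arrays, so their ratios are given side by side and no relation between them is drawn. Apoa4, Apoc1 and Apoe had non-overlapping genotypes in the order Cry-deficient, wild type, Clock mutant, 3 of 8 members, as had 4.13% of kept genes. Lpl and Fabp2 had the reverse order, 2 of 8, as had 4.6%. Either order by construction puts the mutants on opposite sides of wild type at both times. Besides these 5 no member lay so, and 14.8% of kept genes did. The count of orders was chosen after values were seen, and Apoe entered it by 3327 against 3325. The Actb control ratio was high on the CT02 arrays of both mutants, and that of Gapdh only on the Cry-deficient one. The part of these control ratios in the differences was not tested.

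**Figure D3:**
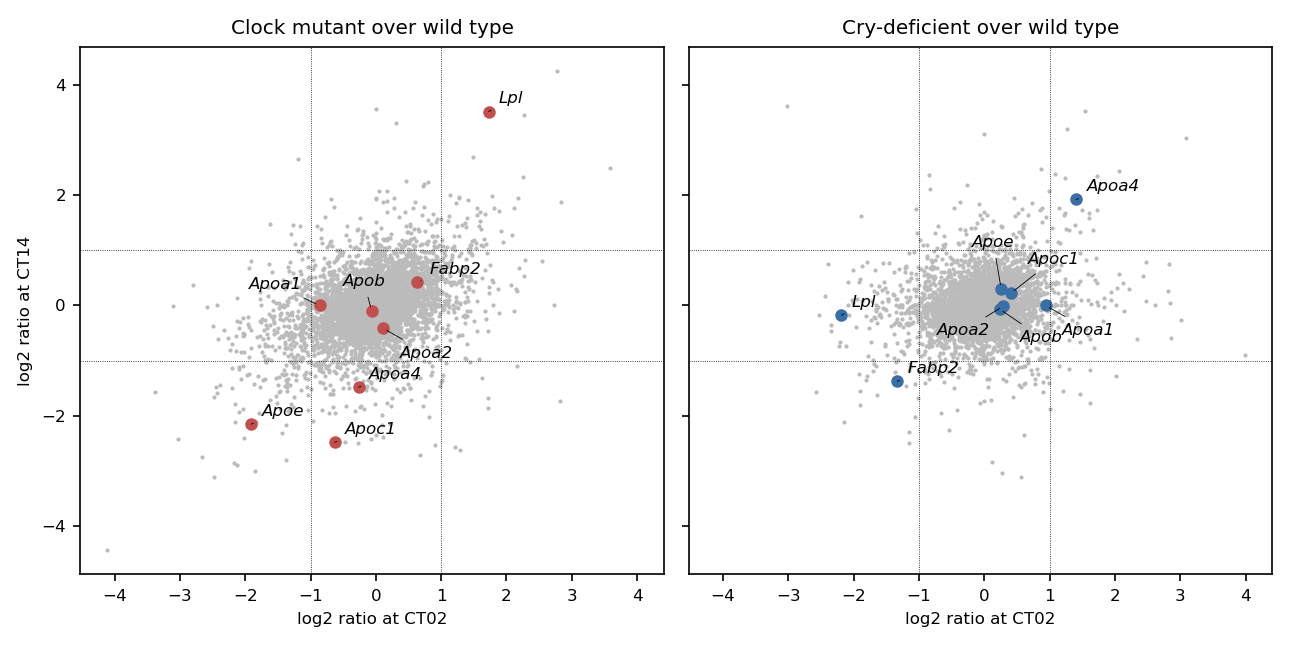
Log2 ratio to wild type at CT02 (horizontal) and CT14 (vertical) for all 4844 kept genes (grey) and the 8 members (named, coloured), in the Clock mutant and in the Cry-deficient mice, with dotted lines at 2-fold and arrays under the floor set to it. Lpl lies at the upper right for the Clock mutant and at the left for the Cry-deficient mice, and Apoa4 and Fabp2 lie outside the 2-fold lines at both times in the Cry-deficient mice.

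Members of this family sit together on chromosomes, and their neighbours are given beside them. Apoc1 and Apoe lie side by side in the RefSeq gene order, with Apoc4 and Apoc2 next to Apoc1. Within 5 places of the pair, 5 other genes were kept (Relb, Clptm1, Apoc2, Apoc4 and Nectin2), and 0 of the 5 was apart in any of the 7 comparisons. That count is too small to set against the 4.56% to 11.8% of all kept genes apart per comparison. Apoc2, the activator of lipoprotein lipase, read 19448 and 18026 (wild type), 24574 and 21236 (Clock mutant), and 19971 and 19611 (Cry-deficient). Apoc4 read 18841 and 18538, 23248 and 16503, and 20623 and 16880 in the same order. Against wild type at CT14 the 5 neighbours ranged from -0.98 (Relb) to 0.24 (Apoc2) in the Clock mutant, where Apoc1 had -2.48. At CT14 the low level in the Clock mutant was thus read for Apoc1 and Apoe and not for Apoc2 and Apoc4 next to them.

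Apoa1 and Apoa4 share a second group with Apoa5, which encodes an enhancer of plasma lipolysis. Apoa5 read 24726 and 20832 (wild type), 26991 and 14918 (Clock mutant), and 27577 and 23904 (Cry-deficient). Its log2 ratios to wild type in the Cry-deficient mice, 0.16 and 0.20, stand beside 1.41 and 1.92 for Apoa4. Of the 5 other kept genes there (Tagln, Sidt2, Pafah1b2, Apoa5 and Zpr1), Pafah1b2 was apart in wild type between the times and in the Cry-deficient mice at CT02, and Zpr1 in the Clock mutant at CT02. In the same order, 4.56%, 6.69% and 11.8% of all kept genes were apart. Apoc3, which lies between Apoa1 and Apoa4, is not analysed here.

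**Figure D4:**
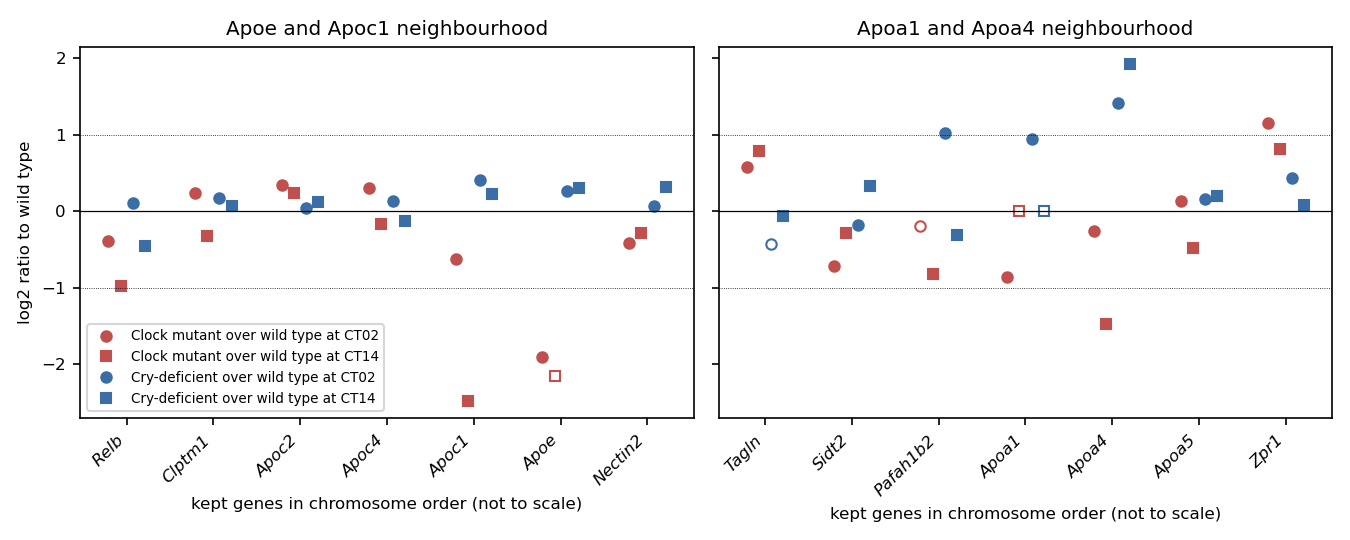
Log2 ratio to wild type of the kept genes around Apoe and Apoc1 and around Apoa1 and Apoa4, in RefSeq gene order (not to scale), with colour for the mutant, circles for CT02, squares for CT14, open symbols where an array lay at the floor, and dotted lines at 2-fold. Apoc1 and Apoe lie below all their neighbours in the Clock mutant at CT14, and Apoa4 lies above all of its own in the Cry-deficient mice.

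Genes with the most similar course over the 6 arrays were sought for the 3 members that were above the floor on all arrays and spanned at least 2-fold, among 1177 other genes that did so. Apoa4 was closest to Acot1, a cytosolic acyl-CoA thioesterase (Pearson r 0.98), Stt3b, a subunit of the oligosaccharyltransferase (0.98), and Dynll1, a dynein light chain (0.95). Apoc1 was closest to Zfp787, Nvl and Krtcap2 (each 0.98). Fabp2 was closest to Rgs10, a regulator of G protein signalling (0.998), Cd59a, a complement inhibitor (0.99), and Gas5, a non-coding RNA host of small nucleolar RNAs (0.99). Cd59a read 9754 and 7813 (wild type), 13650 and 10416 (Clock mutant), and 2601 and 2236 (Cry-deficient). At an r of at least 0.9 there were 15 such genes for Apoa4, 29 for Apoc1 and 35 for Fabp2. These r values describe 6 arrays that share genotypes and scaling.

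Of 95 other genes of lipoprotein metabolism listed in 7 groups (other apolipoproteins, particle assembly, receptors, plasma remodelling, efflux and storage, fatty acid binding and regulators), 72 were on the array and 60 were kept. Between the times, 2 of 60 (3.33%) were apart in wild type, 2 (3.33%) in the Clock mutant and 4 (6.67%) in the Cry-deficient mice, beside 4.56%, 7.74% and 5.55% of all kept genes. Against wild type, 5 of 60 (8.33%) were apart in the Clock mutant at each time, beside 11.8% and 9.76% of all kept genes. In the Cry-deficient mice 5 (8.33%) and 4 (6.67%) were apart at CT02 and CT14, beside 6.69% and 4.73%. These shares are near those of all genes and are no result about the lists. Their medians lay between -0.05 and 0.09 on the log2 scale in all 7 comparisons.

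Of the 9 other apolipoproteins kept, 0 was apart in the Clock mutant against wild type at either time, a count too small to set against the 11.8% and 9.76% of all kept genes. Saa2 and Saa4, serum amyloid A genes of high-density particles, were 2.23-fold and 2.06-fold below wild type in the Cry-deficient mice at CT14. At CT02 Saa2 was instead 2.46-fold above wild type there, so that within the Cry-deficient mice it was 3.83-fold lower at CT14 than at CT02. In particle assembly, Apobec1, the deaminase that edits Apob mRNA, read 1009 and 831 (wild type), 2389 and 2254 (Clock mutant), and 867 and 1248 (Cry-deficient). Both Clock mutant arrays were above all others, 2.37-fold and 2.71-fold above wild type, while Apob itself was level. Mttp, which loads lipid onto apolipoprotein B, was 2.43-fold higher at CT14 than at CT02 in the Clock mutant. None of the 7 receptors and uptake genes kept was apart in any comparison, a count too small to set against the 4.56% to 11.8% of all kept genes.

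In plasma remodelling, Pltp, the phospholipid transfer protein, read 2735 and 1721 (wild type), 1236 and 1166 (Clock mutant), and 4572 and 1875 (Cry-deficient), where it was 2.44-fold lower at CT14 than at CT02. Pla2g7, a lipoprotein-bound phospholipase, was above the floor on the CT02 arrays of both mutants, at 738 and 1527. Fabp5, an epidermal-type fatty acid binding protein, was 2.88-fold and 2.06-fold above wild type in the Clock mutant. Fabp6 was at least 3.24-fold lower at CT14 in wild type and at least 4.79-fold higher in the Clock mutant than in wild type at CT14. In the Cry-deficient mice it was at least 3.24-fold below wild type at CT02. A second Fabp6 probe set was under the floor on all 6 arrays. Among regulators, Hnf4a, a nuclear receptor that drives many apolipoprotein genes, read 871 in the Cry-deficient mice at CT02, 4.64-fold below wild type, and 4154 at CT14. Nr1h4, the bile acid receptor, was 2.66-fold above wild type in the Clock mutant at CT02. Foxa2, a liver-enriched forkhead factor, was 2.86-fold and 3.18-fold above wild type at CT14 in the Clock mutant and the Cry-deficient mice. Wild type there read 747, near the floor. At CT02 wild type and the Clock mutant were under the floor. Foxa2 was at least 3.05-fold above wild type in the Cry-deficient mice at CT02, and at least 3.53-fold higher at CT14 than at CT02 in the Clock mutant. Rora, a nuclear receptor of the clock, was 2.45-fold lower at CT14 in wild type and 3.43-fold lower in the Clock mutant than in wild type at CT02.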

How the data were processed

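Total RNA of 6 livers or liver pools was measured on 6 arrays. Each probe set had 1 intensity per array, deposited by the authors as whole numbers of either sign. The sources used here name neither the software nor the background step. Groups were read from the array titles.

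Each array was divided by its median ratio to the average array (geometric mean), taken over 6065 probe sets that were bright and positive on all. Values under the median of all scaled values (606) were raised to it before log2. Symbols came from the platform's annotation table and, by gene number, RefSeq (GRCm38.p6): 10855 probe sets had 1 symbol, 396 several and 1237 none, 10839 matched, and 0 symbols were updated. The brightest probe set stood for a gene, and genes with a mean at or above the floor were kept. RefSeq also gave promoter sequences and gene order.

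The 7 comparisons were CT14 over CT02 within each genotype and each mutant over wild type at each time. They were run with Python 3.11.15, numpy 2.4.6, pandas 2.3.3, statsmodels 0.14.6 and matplotlib 3.10.9, and the procedure was tested on simulated data. The members and gene lists were chosen with earlier results of these data known. Named are all members, up to 4 genes of the other lists per comparison with the largest ratio past 2-fold, the 3 genes most like each eligible member, and defining markers. Neighbours in gene order, the count of genotype orders and the full values of Pltp, Apobec1 and Cd59a were chosen after values were seen. Alternatives were the values as deposited, quantile and lowess scaling (span 0.3), scaling without the Clock mutant CT02 array, no filter on dim genes or one at the 75th percentile, a floor at the 25th percentile, the mean over probe sets, only probe sets with no letter in their name, and 3-fold. Scaling without the CT02 arrays of both mutants was added after seeing the data.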

Additional observations from a re-analysis of the deposited data

Results flagged for a closer look

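In 5 genes both Clock mutant arrays stood on 1 side of wild type and both Cry-deficient arrays on the other. Both ratios use the same wild-type arrays, and the difference between the mutants was not tested. The difference is the mean log2 ratio to wild type over both times in the Clock mutant minus that in the Cry-deficient mice.

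For Apoa4 the difference was -2.54, from ratios of -0.26 and -1.48 (Clock mutant) and 1.41 and 1.92 (Cry-deficient). For Apoc1 it was -1.87, with ratios of -0.63 and -2.48 against 0.41 and 0.22. For Apoe it was -2.31, a bound, since the Clock mutant CT14 array was under the floor, with the Cry-deficient ratios at 0.26 and 0.30. For Fabp2 it was 1.87, with 0.63 and 0.42 against -1.33 and -1.37. For Lpl it was 3.80, a bound, since both Cry-deficient arrays were under the floor. The Cry-deficient side was small for Apoc1 and Apoe, and that of the Clock mutant was small for Fabp2.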

How the results depend on the processing

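No member ratio past 2-fold changed sign under any alternative run. Of 539 values of single members under the alternatives, 497 lay within 0.21 of the value given (the median SD of residuals of an additive fit of genotype and time, used as the yardstick) and 42 moved further. For the 15 member ratios past 2-fold, 146 of 148 alternative values stayed past it on the same side. The others were Apoa4 in the Clock mutant between times as deposited (-0.73) and Apoe in the Clock mutant at CT02 with the mean over probe sets (-0.96). Many of the values counted could not move. Settings that changed only the filter on dim genes left scaling and floor alone, so each kept ratio was the same by construction. So it was for members kept with only probe sets with no letter, and under the probe set mean for members with no further probe set. Both counts therefore overstate how far the ratios were tried.

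Counts of members apart that moved by over 1.5 times, or to 0, were these. As deposited, 1 was apart between times in the Clock mutant (Apoc1). With the floor at the 25th percentile there were, between times, 2 in wild type and 4 in Clock mutant mice, and 4 in the Cry-deficient mice at CT14, the added genes being read from values under the 606 floor. With the filter at the 75th percentile, or scaling without the CT02 arrays of both mutants, 0 were apart between times in the Cry-deficient mice, because Apoa1 was then not kept. With the mean over probe sets 1 was apart in the Clock mutant at CT02 (Lpl). At 3-fold there was 1 each in the Clock mutant between times (Apoc1), the Cry-deficient mice at CT02 (Lpl) and the Cry-deficient mice at CT14 (Apoa4). Smaller moves were 3 in the Clock mutant at CT02 as deposited (Apoc1 added), 4 in the Cry-deficient mice at CT02 after lowess (Apoa1 added), and, in the Clock mutant at CT14, 5 with the lower floor (Apoa1 added) and 3 at 3-fold (without Apoa4).

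As deposited, the median of all kept genes was 0.45 between times in the Clock mutant, -0.52 in the Clock mutant at CT02, 0.20 between times in the Cry-deficient mice and -0.11 in the Cry-deficient mice at CT02. Of genes apart, 93.1% were then higher between times in the Clock mutant, against 55.7% as scaled, and 5.62% in the Clock mutant at CT02, against 36.1%. For the Cry-deficient mice these shares were 81.9% against 63.6% between times and 28.6% against 40.7% at CT02. As deposited, 711 kept genes were apart between times in the Clock mutant and 1032 at CT02 against wild type, in place of 375 and 570, and with the lower floor 579 were apart between times in the Clock mutant. By construction, 3-fold left 47 to 151 genes apart per comparison and the 75th percentile filter 63 to 200, in place of 221 to 570. The signal over background limits what was read of Apoa1, Apoe in the Clock mutant, and Lpl outside it. No paired analysis was possible because the labels give no replicate numbers and no result comes from a test. The additive fit of genotype and time leaves residuals, but they hold the genotype differences in the time ratio that are described, so it served only as the yardstick.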
